A study of Mus musculus with 6 samples.

Results

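The genes described here were 114 named pseudogenes of ribosomal proteins, 65 of large-subunit proteins (Rpl) and 49 of small-subunit proteins (Rps), among the 54429 genes counted in the prefrontal cortex (PFC). They were all genes whose symbol is that of a ribosomal protein followed by -ps, with or without a number, and whose counts summed to at least 15 over the 6 libraries. Another 184 genes of such names fell below that sum, 86 of them without a count. RNA of the PFC was sequenced in 3 groups of 2 libraries each, which the labels call biological duplicates. WT + vehicle mice were of the (C57BL/6 x C3H) cross without the transgene. Tau + vehicle and Tau + UNC0642 mice were PS19(P301S) animals, which carry a mutant human tau under the mouse Prnp promoter. UNC0642, an inhibitor of the histone methyltransferases EHMT1 and EHMT2, was injected at 1 mg/kg once daily for 3 days, and control mice received the saline vehicle with DMSO. The methods give an age of 5 to 7 months for mice of both sexes. The sample list used here gives 6 months for every library, without stating the source of that age. No library came from WT mice given UNC0642. Transgenic and WT mice were littermates on a mixed background, and every library is bulk tissue, in which fewer cells of a type and less RNA per cell cannot be told apart.

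Each mammalian ribosomal protein is as a rule made from a single intron-bearing parent gene. Its abundant mRNA has been reverse transcribed and inserted elsewhere in the genome many times, by the enzymes of LINE-1 elements, which left intronless copies called processed pseudogenes. Most copies lack a promoter of their own and have gathered mutations since insertion. Young copies still carry nearly the same sequence as the mRNA, so a read of the mRNA can align equally well to several places.

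The sequences of a few copies show how close they remain to their parents. Rpl38 encodes a small protein of the large subunit, and the whole of Rpl38-ps2 (GRCm38, chr6:140746960-140747172, minus strand, in an intron of Gm11077) was identical to the 213-base coding sequence of Rpl38 from start to stop codon, shown here in capitals.
Rpl38-ps2: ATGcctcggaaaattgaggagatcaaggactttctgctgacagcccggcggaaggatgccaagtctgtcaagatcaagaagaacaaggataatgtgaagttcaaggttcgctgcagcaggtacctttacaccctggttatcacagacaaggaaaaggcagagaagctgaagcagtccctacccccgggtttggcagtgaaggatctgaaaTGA
Rpl3 encodes a core protein of the large subunit that lies near the catalytic centre. The stretch of 120 bases in which Rpl3-ps2 departs most from it covers bases 950 to 1069 of the Rpl3 coding sequence, chrX:13203521-13203640 in Rpl3-ps1 and chrX:74171604-74171723 in Rpl3-ps2, both on the plus strand. Capitals mark the 4 bases at which Rpl3-ps2 differs from Rpl3, and Rpl3-ps1 has none.
Rpl3: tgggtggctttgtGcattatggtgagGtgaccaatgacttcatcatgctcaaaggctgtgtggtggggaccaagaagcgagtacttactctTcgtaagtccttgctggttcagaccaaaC
Rpl3-ps1: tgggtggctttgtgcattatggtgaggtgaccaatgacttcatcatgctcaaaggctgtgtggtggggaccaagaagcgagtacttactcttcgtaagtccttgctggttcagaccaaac
Rpl3-ps2: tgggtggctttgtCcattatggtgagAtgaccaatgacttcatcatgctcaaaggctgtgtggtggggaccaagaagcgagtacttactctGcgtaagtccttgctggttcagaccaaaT
Rpl15 encodes another protein of the large subunit, and Rpl15-ps2 (chr9:72060937-72061056 for this stretch, plus strand, in an intron of Tcf12) differed from bases 3 to 122 of its coding sequence at the 3 bases in capitals.
Rpl15: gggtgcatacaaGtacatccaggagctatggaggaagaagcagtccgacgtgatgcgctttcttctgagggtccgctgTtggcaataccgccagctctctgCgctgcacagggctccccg
Rpl15-ps2: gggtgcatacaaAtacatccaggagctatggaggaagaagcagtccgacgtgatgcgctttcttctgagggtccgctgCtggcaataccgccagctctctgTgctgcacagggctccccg
Rps15a belongs to the small subunit, and Rps15a-ps6 (chr11:6172873-6172992 for this stretch, minus strand, in an intron of Nudcd3) differed from bases 45 to 164 of its coding sequence at 3 bases. Capitals mark these. The copies were chosen because their counts exceeded those of the parent (Rpl38-ps2, Rpl3-ps1) or because, among members with at least 100 counts, their CPM varied most between libraries (Rpl3-ps2, Rpl15-ps2, Rps15a-ps6).
Rps15a: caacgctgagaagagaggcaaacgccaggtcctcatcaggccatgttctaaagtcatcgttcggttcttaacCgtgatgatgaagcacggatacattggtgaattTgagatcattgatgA
Rps15a-ps6: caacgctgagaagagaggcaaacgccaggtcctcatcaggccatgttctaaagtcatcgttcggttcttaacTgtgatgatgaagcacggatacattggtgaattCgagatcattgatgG

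The same closeness held for most members. Aligned to the spliced transcript of the gene in its name, 112 members matched over at least 100 bases, at a median identity of 98.5% and a range from 87.1% to 100%, and 10 matched without a difference. Among those without such a match, Rps7-ps2 matched no ribosomal protein transcript and shared 236 of its 50-base runs with Odc1. Rpl36a-ps3 was closest to Rpl36al, and Rpl13-ps1 lay in the annotation on the strand opposite to its Rpl13-like sequence. Of 1450 bases that differed between parent and copy, 72.5% were transitions. CG dinucleotides, whose cytosines are often methylated and mutate readily, had changed at 9.74% of their 4519 bases, against 1.75% of the other 57751 bases. An open reading frame at least as long as the parent's coding sequence was kept by 48 of the 112 copies. In the annotation (GENCODE M21, GRCm38), from which the sequences also come, 112 of the 114 members have a single exon. It lists 104 members as processed pseudogenes, 6 as transcribed processed pseudogenes and 4, Rpl9-ps6, Rpl36a-ps1, Rps12-ps3 and Rpl10-ps3, as protein-coding genes. By position, 65 lay between genes, 45 in an intron of another gene and 4, all of them copies of Rpl19, on an exon of an annotated miRNA gene. Of the 49 inside another gene, 20 had that gene's strand and 29 the opposite one.

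The libraries held 17005664 to 28972176 counts, and the members took 0.139% to 0.154% of them, against 0.312% to 0.332% for the 79 cytosolic ribosomal protein genes. There were thus 44.0 to 46.4 member counts for every 100 counts of ribosomal protein genes. Some libraries differed in ways the groups do not explain. Xist, transcribed from the inactive X of females, had 8107 counts in WT replicate 2, 5340 and 4104 in Tau replicates 1 and 2, and 5 or fewer in the other 3 libraries, which had 1705 to 2411 counts of the Y-linked Ddx3y. The comparison of UNC0642 with vehicle in Tau mice therefore coincides with this difference, and treatment and sex cannot be told apart. Prnp, whose promoter drives the tau transgene, was at 1650 CPM (counts scaled to library size with TMM factors) in the library labelled WT replicate 1 and at 1469 to 1692 CPM in the transgenic libraries, against 872 CPM in WT replicate 2. The level of Prnp in the library labelled WT replicate 1 thus goes against its label, and the members called against WT are given with and without it. Oligodendrocyte markers (5 genes) summed to 4980 CPM in Tau replicate 2 and to 1285 to 2645 CPM elsewhere, while 7 neuronal markers summed to 5488 to 6382 CPM in all 6 libraries. Striatal neuron markers (3 genes) summed to 99.04 CPM in Tau replicate 2 and to 41.9 to 52.3 CPM elsewhere, and endothelial markers (4 genes) to 65.9 and 68.6 CPM in Tau + vehicle against 98.0 and 89.7 CPM in WT + vehicle. The part of these differences in the results was not tested.

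The counts were concentrated in few members. The total over all libraries ranged from 15 to 31619 with a median of 113, 55 members had fewer than 100 counts, and the 10 with the most counts held 60.8% of the 197467 member counts. At the edge of the rule stood Rps2-ps6 with 15 counts, followed by Rpl35-ps1 and others with 16, and just outside it Rpl21-ps13, Rpl21-ps10 and Rpl31-ps14 with 14. Rpl3-ps1 came first, with 6306 and 5784 counts in WT + vehicle, 6131 and 3895 in Tau + vehicle, and 4078 and 5425 in Tau + UNC0642. Scaled to library size these were 219 to 248 CPM in all 6 libraries, and its log2 fold change was -0.10 ± 0.07 (SE) between Tau and WT. Next came the copies of Rpl14 (Rpl14-ps1, 107 to 118 CPM), Rpl19 (Rpl19-ps11, 82.7 to 92.4 CPM) and Rpl9 (Rpl9-ps6, 80.1 to 89.0 CPM), all proteins of the large subunit. Rpsa-ps10, Rpl31-ps8, Rpl38-ps2, Rpl10a-ps1, Rps6-ps4 and Rps25-ps1 completed the 10 with the highest mean CPM, between 41.2 and 81.7 CPM in any library. Of these 10 by mean CPM, Rpsa-ps10 was called in a comparison. Among the 10 with the most counts, Rps16-ps2 stands in place of Rps25-ps1 and was called too.

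Many of these copies held more counts than the gene they derive from. Rpl38-ps2 had 1735, 1652, 1728, 1181, 1199 and 1622 counts in the order WT, Tau, UNC0642, and Rpl38 itself 64, 61, 54, 31, 30 and 44. Per kilobase of annotated exon this was 42803 counts for the copy and 524 for the parent, over all libraries. Rps16-ps2, without a mismatch to the small-subunit gene Rps16, had 6215 counts and Rps16 263, and Rpl3-ps1 had 31619 counts against 1643 of Rpl3. In all, 24 of 114 members had more counts than their parent, and 39 had more counts per kilobase. The parent's length is that of all its merged exons, retained introns included, which lowers its counts per kilobase. Rps15a-ps6, for example, had 760 counts, or 1934 per kilobase, and Rps15a 11367 counts, or 1813 per kilobase. Among the 50 parents, 22 held under 50% and 10 under 10% of the counts of their family, that is of the parent and all its named pseudogenes together. The lowest share was that of Rpl38 with 3.01%, and the highest that of Rpl32 with 99.8%.

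Among the members, the level of a copy went with how much of it the parent shares exactly. For each member, every run of 50 bases was looked up in the transcripts of all other genes. The members were chosen by their counts, and the named copies below 15 counts were not looked up. The relation is thus described only above that limit. In 9 members all runs were also in the parent, and these had a median of 12609 counts per kilobase, of which the lowest was 423. The 48 members that shared more than 50% but not all runs had a median of 1158, the 46 that shared up to 50% a median of 82.5, and the 11 that shared none a median of 48.0 counts per kilobase. Spearman's rho between the shared percentage and the counts per kilobase was 0.56 across the 114 members, which share parents, libraries and reads and are not independent. All 9 fully shared copies exceeded their parent per kilobase, as did 27 of the 48, 2 of the 46 and 1 of the 11. By counts alone, 8 of the 9, 16 of the 48, 0 of the 46 and 0 of the 11 did. The 48 copies with a full open reading frame had a median of 1116 counts per kilobase and the other 64 a median of 91.3.

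**Figure D1:**
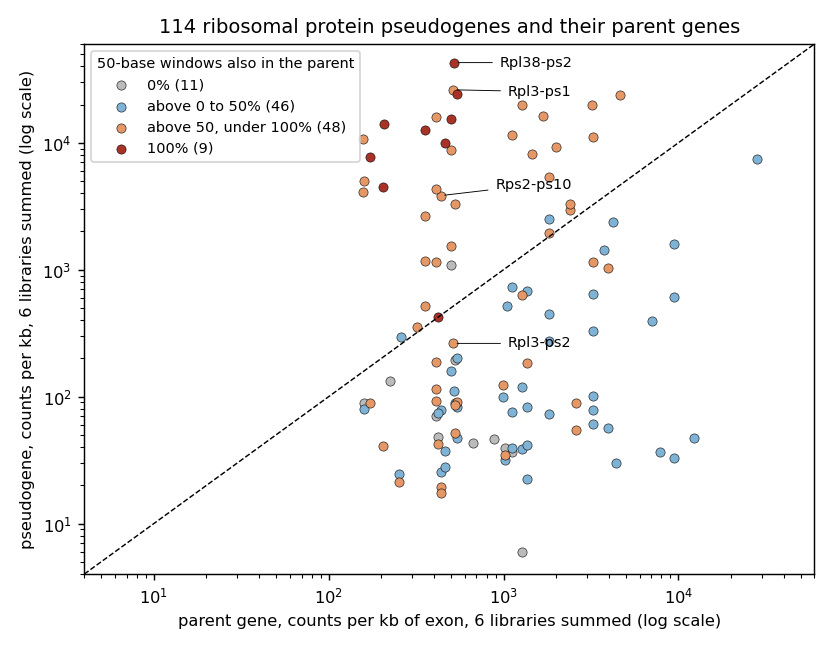
Counts per kilobase of each of the 114 pseudogenes (vertical) against those of its parent gene (horizontal), summed over 6 libraries, on log scales. Colours give the percentage of the pseudogene's 50-base runs that are also in the parent, and the dashed line marks equal values; the 9 fully shared copies all lie above it.

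Counts of members were more often even numbers than those of other genes. Of the 334 values of at least 20 counts, 73.4% were even, against 49.6% in ribosomal protein genes, 59.5% in other named pseudogenes and 53.7% in all genes. Of the 50 members with at least 20 counts in every library, 13 were even in all 6, including Rps2-ps10, Rps26-ps1 and Rpl28-ps1, which occurred in 3.90% of all genes at that depth. Whether both reads of a pair were counted is not given in the sources used here.

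The first comparison, between P301S Tau and WT mice given vehicle, asks what the tau transgene goes with. A gene was called at the limits the study used, a 1.2-fold change or more with p under 0.05, here with the unadjusted p of edgeR's quasi-likelihood test. Differences below are log2 fold changes with their SE. Of the 114 members 75 passed the filter on low counts. The 39 others had 15 to 42 counts in all and at most 24 in a library. In this comparison 8 of the 75 were called, or 10.7%, near the 9.82% of all 20409 genes tested. Of these, 5 were higher in Tau mice (3.72% of all genes were) and 3 lower (6.1% of all genes). The higher ones were Rpl3-ps2, Rpl10-ps3, Rpsa-ps10, Rpsa-ps12 and Rpl28-ps1, and the lower ones Rpl31-ps21, Rps2-ps11 and Rps15a-ps6. The libraries of the groups did not overlap in 44% of the 75 members and in 43.2% of all genes. Without the library labelled WT replicate 1, 9 members were called, all higher in Tau mice and 3 of them shared with the 8, beside 9.13% of all genes in that fit. Without Tau replicate 2, 3 members were called, 2 of them shared, beside 8.76% of all genes. With Xist as a covariate 11 were called, 9 higher and 2 lower, of which 5 were shared, beside 9.05% of all genes. Within groups, Xist differed widely only between the WT libraries, at 0.197 and 316 CPM. That fit therefore takes its Xist slope mainly from them, and 1 of them is the library whose Prnp goes against its label. The median log2 fold change of the tested members was 0.06, against 0.00 for all genes, and it was -0.01 when scaled by library size alone. After Benjamini-Hochberg adjustment over all genes 1 member remained, against 0.157% of all genes.

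Between Tau mice given UNC0642 and Tau mice given vehicle, which asks what the inhibitor goes with, 7 of 75 members were called, or 9.33%, beside 7.69% of all genes. Rps2-ps11 and Rpsa-ps9 were higher after UNC0642 (3.73% of all genes were), and Rpl3-ps2, Rpl15-ps2, Rps2-ps10, Rps16-ps2 and Rps26-ps1 were lower (3.95% of all genes). The groups did not overlap in 38.7% of members and 41.3% of all genes, and 1 member passed adjustment, against 0.0196% of all genes. With Xist as a covariate 7 members were called, all lower and 3 of them shared (Rpl3-ps2, Rpl15-ps2 and Rps2-ps10), beside 8.02% of all genes. That fit too takes its Xist slope mainly from the WT libraries, so it cannot separate treatment from sex. Between Tau + UNC0642 and WT + vehicle, 2 members were called, or 2.67% against 9.46% of all genes. Both, Rps2-ps10 and Rpl15-ps2, were lower, as were 5.69% of all genes, and none was higher, against 3.77% of all genes. Here the groups did not overlap in 33.3% of members and 44.4% of all genes, and no member passed edgeR's adjusted threshold, which 0.216% of all genes did. The same 2 members had an unadjusted p under 0.05. Leaving out the library labelled WT replicate 1 turned these 2 calls into 5, of which 4 were higher and 1, Rps2-ps10, was lower and shared, beside 9.26% of all genes in that fit. In that fit the only WT library left was the one with many Xist counts, while both UNC0642 libraries had few. The comparison with WT then coincides with the Xist difference, and group and sex cannot be told apart in it. The comparisons share libraries: a high or low Tau library moves both of the first 2 in opposite directions.

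**Figure D2:**
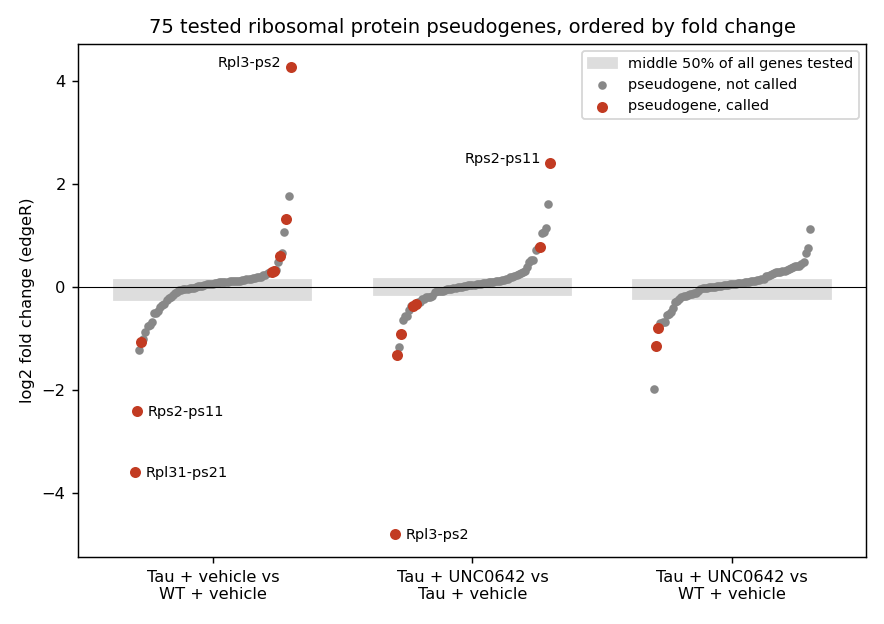
Log2 fold changes of the 75 tested pseudogenes in the 3 comparisons, ordered within each; red points were called and the grey band holds the middle 50% of all genes. Most members lie within or near the band, and Rpl3-ps2 stands above all others in the first comparison and below all others in the second.

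The 50 parents had 2, 5 and 3 calls in the 3 comparisons (4%, 10% and 6%), beside 9.82%, 7.69% and 9.46% of all genes. The 79 ribosomal protein genes had 5, 6 and 4 (6.33%, 7.59% and 5.06%). The 169 tested pseudogenes of other families had 18, 17 and 14 (10.7%, 10.1% and 8.28%). A member and its parent had a log2 fold change of the same sign in 41, 40 and 42 of 75 pairs, or 54.7%, 53.3% and 56%, near an even split. Of the members called between Tau and WT, 1 of 8 had a called parent (Rpl3-ps2), and of those called after UNC0642, 4 of 7. Of these 4, Rpl3-ps2 and Rpl15-ps2 had the direction of their parent, as did Rps2-ps11, while Rps2-ps10 had the opposite one, and the Rps2 call rests on 499 counts in UNC0642 replicate 2 beside 41 in replicate 1.

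Rpl3-ps2 on the X chromosome (chrX:74170653-74171866, plus strand, between genes) was the member that differed most between groups. The counts of Rpl3-ps2 were 11 and 6 in WT + vehicle, 175 and 118 in Tau + vehicle and 5 and 4 in Tau + UNC0642. Both Tau + vehicle libraries lay far above all others, and the other 4 libraries held 11 counts or fewer. It was higher in Tau than in WT mice by 4.26 ± 0.38 (SE, edgeR adjusted p = 0.0082), the highest log2 fold change of all 20409 genes. After UNC0642 it was lower by a log2 fold change of -4.79 ± 0.42 (SE, edgeR adjusted p = 0.0057). Only in Tau + vehicle did both libraries reach the filter's minimum count of 10. The row thus passed the filter through the group in which it is high. Its rank and adjusted p-values carry that selection, and both folds are taken against very low counts. Both calls held in all 15 alternatives that tested it, and without the library labelled WT replicate 1 the first difference was 4.76. WT replicate 2, a library with many Xist counts like those of Tau + vehicle, had 6 counts. The part of sex in these differences was not tested, and in the second comparison it coincides with treatment.

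The parent, Rpl3, was called in the same directions. In WT + vehicle Rpl3 had 181 and 148 counts, in Tau + vehicle 670 and 403, and in Tau + UNC0642 74 and 167. It was higher in Tau than in WT mice by 1.86 ± 0.21 (SE, edgeR adjusted p = 0.014; 2.02 without the library labelled WT replicate 1) and lower after UNC0642 by a log2 fold change of -1.98 ± 0.22 (SE, edgeR adjusted p = 0.017). Rpl3-ps1, the copy with the most counts, was at 248 and 226 CPM in WT, 219 and 223 CPM in Tau and 241 and 239 CPM in UNC0642 libraries, and was not called. In Tau + vehicle, Rpl3 held 9.60% and 9.13% of the counts of its family and Rpl3-ps2 2.51% and 2.67%, while in the other 4 libraries Rpl3 held 1.78% to 2.98% and Rpl3-ps2 0.0715% to 0.169%. The sum of all 3 was 232 to 256 CPM in every library, with log2 fold changes of 0.04 ± 0.08 (SE) between Tau and WT and -0.03 ± 0.08 after UNC0642, neither of them called. Rpl3-ps2 was 98.8% identical to Rpl3 with 10 mismatches, and 58.1% of its 50-base runs occurred in Rpl3.

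**Figure D3:**
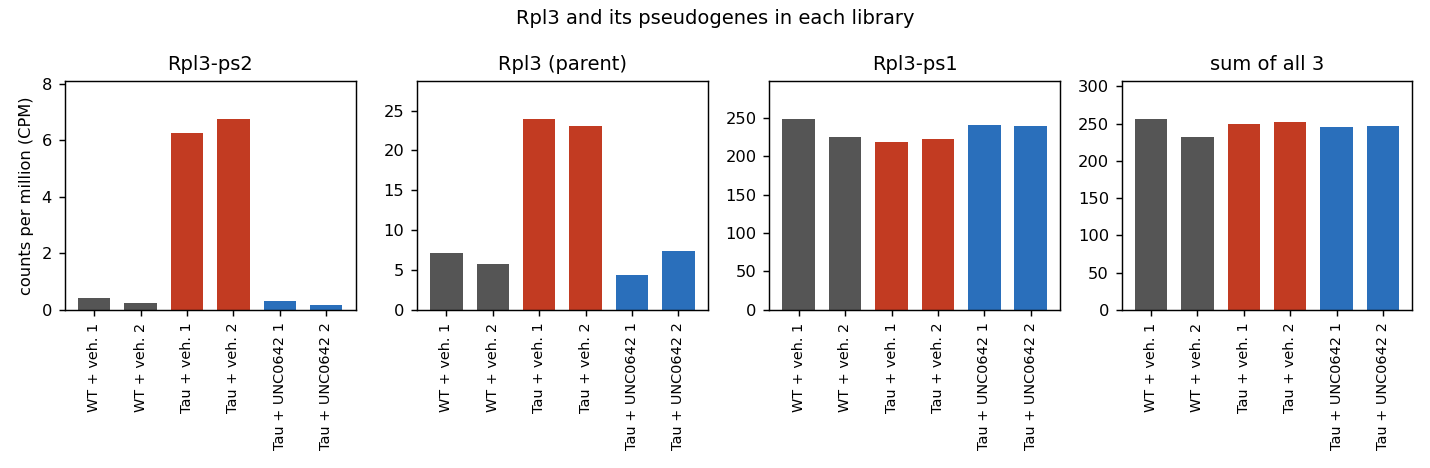
Counts of Rpl3-ps2, Rpl3, Rpl3-ps1 and their sum in the 6 libraries, scaled to library size (CPM), 1 bar per library and each panel with its own vertical axis from 0. Rpl3-ps2 and Rpl3 are highest in both Tau + vehicle libraries, and the sum lies between 232 and 256 CPM in all 6.

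Among the other large-subunit copies, Rpl15-ps2 was lower after UNC0642. Rpl15-ps2 had 188 and 78 counts in WT + vehicle, 157 and 109 in Tau + vehicle, and 21 and 76 in Tau + UNC0642. Per library size UNC0642 replicate 1 was the lowest and the library labelled WT replicate 1 the highest, and both Tau + vehicle libraries were above both UNC0642 libraries. The difference between UNC0642 and Tau was -1.32 ± 0.47 (SE, edgeR adjusted p = 0.476). It was -0.82 without UNC0642 replicate 1 and -1.25 without Tau replicate 2, neither of them called, and -2.24 without UNC0642 replicate 2 and -2.50 with Xist as a covariate. Against WT the difference was -1.15 ± 0.47 (SE, edgeR adjusted p = 0.366), which became -0.37 without the library labelled WT replicate 1 and -0.64 without UNC0642 replicate 1, neither called, and -2.07 without UNC0642 replicate 2. Rpl15 itself was at 63.7 to 86.4 CPM in the vehicle libraries and at 57.5 and 69.0 CPM after UNC0642. The parent was called between Tau and WT (0.30 ± 0.11, and 0.39 without the library labelled WT replicate 1) and between UNC0642 and Tau (-0.40 ± 0.11), and so was the family as a whole (0.29 ± 0.12 and -0.44 ± 0.12). Tcf12, in whose intron the copy lies on the opposite strand, had 8162 counts over all libraries.

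Rpl31-ps21 was a diverged copy (91.5% identity) of Rpl31, a large-subunit protein near the exit of the peptide tunnel. The counts of Rpl31-ps21 were 45 and 15 in WT + vehicle, 0 and 4 in Tau + vehicle and 2 and 10 in Tau + UNC0642. Both WT libraries were above the other 4. Only in WT + vehicle did both libraries reach the filter's minimum count of 10. This row thus passed the filter through the group in which it is high. The difference between Tau and WT was -3.59 ± 1.07 (SE, edgeR adjusted p = 0.273), and it was not called without the library labelled WT replicate 1 (-2.57) or without Tau replicate 1 (-2.34). Without Tau replicate 2 the Tau group was a single library at 0 counts, for which no fold is given. Rpl31 had 899 counts in all and was not called (0.06 ± 0.18).

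Rpl10-ps3 on chromosome 9 is annotated as protein-coding and matched 740 bases of Rpl10, an X-chromosomal gene for a protein that joins the large subunit late, without a mismatch. In WT + vehicle Rpl10-ps3 had 18 and 14 counts, in Tau + vehicle 38 and 32, and in Tau + UNC0642 18 and 24. Both Tau + vehicle libraries were above all others. The difference between Tau and WT was 1.32 ± 0.42 (SE, edgeR adjusted p = 0.299), and it was not called without WT replicate 2 (1.14) or Tau replicate 2 (1.11). Without the library labelled WT replicate 1 it was 1.52 and called. Rpl10 had 146, 124, 161, 132, 113 and 169 counts, with a difference of 0.32 ± 0.21 that was not called.

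Rpl28-ps1, in an intron of Zranb3, had no mismatch to Rpl28, another large-subunit gene. Rpl28-ps1 had 312 and 308 counts in WT + vehicle, 416 and 266 in Tau + vehicle, and 222 and 344 in Tau + UNC0642. The Tau + vehicle libraries lay above both WT libraries per library size. The difference between Tau and WT was 0.31 ± 0.13 (SE, edgeR adjusted p = 0.394), and it was called in 3 of 16 alternatives and in none of the fits without 1 of the 6 libraries (0.29 to 0.32), nor with Xist as a covariate. Rpl28 had 49, 70, 92, 51, 52 and 62 counts, and the family was called with 0.33 ± 0.12.

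In the small subunit, the counts of the Rps2 family were divided differently in 1 library. Rps2 lies near the mRNA entry of the ribosome, and its copy Rps2-ps10 lies in an intron of Pde6a. The counts of Rps2-ps10 were 768 and 772 in WT + vehicle, 982 and 522 in Tau + vehicle and 394 and 264 in Tau + UNC0642. In WT + vehicle Rps2 had 83 and 54 counts, in Tau + vehicle 73 and 54, and in Tau + UNC0642 41 and 499. UNC0642 replicate 2 was the lowest library for the copy and the highest for the parent. Rps2-ps10 held 33.5% of the family's counts there and 85.8% to 91.9% in the other 5, and Rps2 63.3% there and 6.30% to 9.42% elsewhere. Rps2-ps10 was lower after UNC0642 by a log2 fold change of -0.91 ± 0.24 (SE, edgeR adjusted p = 0.395) and lower than in WT by -0.80 ± 0.24 (SE, edgeR adjusted p = 0.244), and both calls held in all 16 alternatives. The values without UNC0642 replicate 2 were -0.48 and -0.38, and without UNC0642 replicate 1 they were -1.48 and -1.38. Without the library labelled WT replicate 1 the difference from WT was -0.80. The family together was at 27.1 to 38.1 CPM, with -0.21 ± 0.13 and -0.14 ± 0.13, and was not called. Pde6a, the gene around the copy, had 46 counts in all against 3702 of Rps2-ps10.

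Another copy, Rps2-ps11, had few counts. Rps2-ps11 had 19 and 16 counts in WT + vehicle, 6 and 0 in Tau + vehicle, and 13 and 14 in Tau + UNC0642. Both Tau + vehicle libraries were below the other 4. The difference between Tau and WT was -2.40 ± 0.83 (SE, edgeR adjusted p = 0.316) and that after UNC0642 2.40 ± 0.84 (SE, edgeR adjusted p = 0.475). Neither was called without Tau replicate 2, which had the 0 (-1.65 and 1.66). The first was also lost without the library labelled WT replicate 1 (-2.27) and the second without UNC0642 replicate 1 (2.25) or with Xist as a covariate (2.13), and without Tau replicate 1 the Tau group was a single library at 0. Usp4, in whose intron it lies on the opposite strand, had 14020 counts.

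Rps26-ps1 and Rps16-ps2 were lower after UNC0642 by smaller amounts. Rps26 sits near the exit of the mRNA channel, and its copy lies in an intron of Wwp2. The counts of Rps26-ps1 were 750 and 696 in WT + vehicle, 818 and 508 in Tau + vehicle and 456 and 440 in Tau + UNC0642. Per library size, 5 libraries were at 27.0 to 29.5 CPM and UNC0642 replicate 2 at 19.4 CPM. The difference of -0.34 ± 0.15 (SE, edgeR adjusted p = 0.555) became -0.11 without that library, in which Rps26 held 52.4% of the family's counts against 33.7% to 37.2% in the others. It was not called either without Tau replicate 1 (-0.33) or Tau replicate 2 (-0.34), nor with Xist as a covariate (-0.45), and it was -0.59 without UNC0642 replicate 1. The family as a whole differed by -0.12 ± 0.09 and was not called.

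Rps16-ps2, without a mismatch to its parent and in an intron of Adgrd1, had more counts than most members. In WT + vehicle Rps16-ps2 had 1106 and 1178 counts, in Tau + vehicle 1543 and 826, and in Tau + UNC0642 739 and 823. Per library size Tau replicate 1 was the highest with 55.1 CPM and UNC0642 replicate 2 the lowest with 36.3 CPM. The difference after UNC0642 was -0.36 ± 0.12 (SE, edgeR adjusted p = 0.453), and -0.24 without Tau replicate 1 -0.23 without UNC0642 replicate 2 and -0.30 with Xist as a covariate, none of which was called. The copy held 93.5% to 97.4% of its family, which was called with -0.35 ± 0.11.

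The call of Rps15a-ps6 rested on 1 library. Rps15a-ps6 had 289 and 108 counts in WT + vehicle, 121 and 52 in Tau + vehicle, and 88 and 102 in Tau + UNC0642. The library labelled WT replicate 1 stood at 11.4 CPM and the other 5 at 2.97 to 5.20 CPM. The difference between Tau and WT was -1.08 ± 0.40 (SE, edgeR adjusted p = 0.339), -0.19 without that library -0.85 without Tau replicate 2 and -0.29 with Xist as a covariate, none of them called, and -1.62 without WT replicate 2. In the library labelled WT replicate 1, Rps15a had its lowest share of the family, 65.2% against 73.7% to 77.2% in the others. The family summed to 107 to 113 CPM in the vehicle libraries, with a difference of 0.02 ± 0.09. Nudcd3, whose intron holds the copy on the same strand, had 25827 counts, and its part in the result was not tested.

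Rpsa, a small-subunit protein also known as the laminin receptor precursor, had the most members, 7, and 3 of them were called. Rpsa-ps10 and Rpsa-ps12 were called between Tau and WT, as were 9.82% of all genes. Rpsa-ps9 was called after UNC0642, as were 7.69% of all genes. Rpsa-ps10 was the most abundant of the 3. The counts of Rpsa-ps10 were 1682 and 1652 in WT + vehicle, 2181 and 1428 in Tau + vehicle and 1192 and 1610 in Tau + UNC0642. Per library size both Tau + vehicle libraries (77.9 and 81.7 CPM) were above the others (64.4 to 70.9 CPM). It was higher in Tau than in WT mice by 0.29 ± 0.08 (SE, edgeR adjusted p = 0.257), and at 0.25 without Tau replicate 2 and 0.22 with library size alone it was under the fold limit. Without the library labelled WT replicate 1 it was 0.30.

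Rpsa-ps12 and Rpsa-ps9 had fewer counts. In WT + vehicle Rpsa-ps12 had 77 and 94 counts, in Tau + vehicle 141 and 91, and in Tau + UNC0642 83 and 86. Rpsa-ps12 was higher in Tau mice by 0.61 ± 0.24 (SE, edgeR adjusted p = 0.364), and not called without the library labelled WT replicate 1 (0.48), Tau replicate 1 (0.63) or Tau replicate 2 (0.59), nor with Xist as a covariate (0.50). Rpsa-ps9 had 59 and 53 counts in WT + vehicle, 45 and 27 in Tau + vehicle, and 42 and 66 in Tau + UNC0642. Rpsa-ps9 was higher after UNC0642 by 0.77 ± 0.31 (SE, edgeR adjusted p = 0.513), and not called without Tau replicate 1 (0.81), Tau replicate 2 (0.75) or UNC0642 replicate 2 (0.65), nor with Xist as a covariate (0.62). Rpsa itself differed between Tau and WT by 0.13 ± 0.09, and the family, at 153 to 180 CPM, by 0.19 ± 0.07, under the fold limit.

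**Figure D4:**
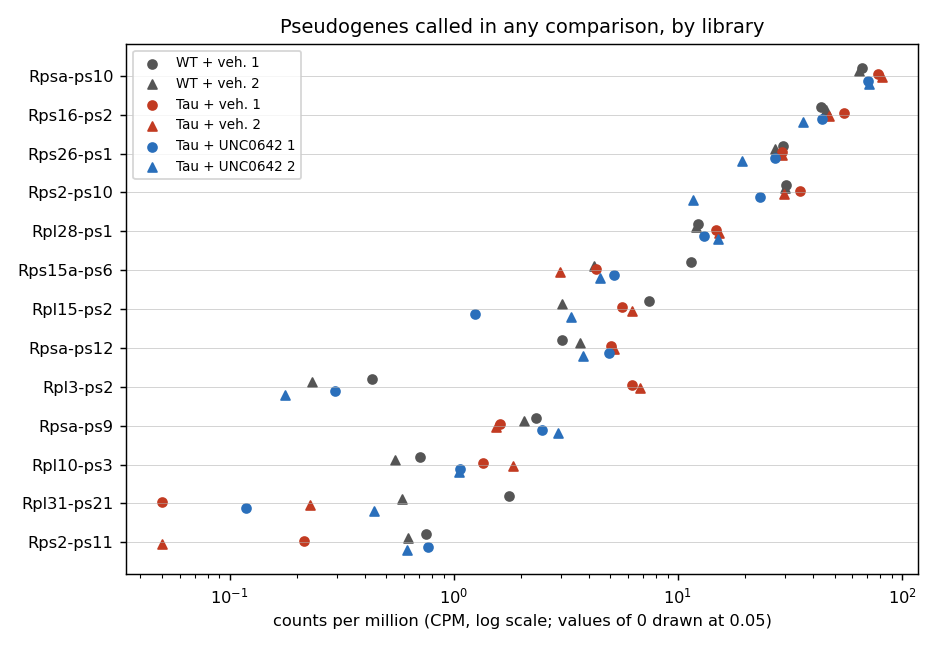
Library-size-scaled counts (CPM, log scale) of the 13 pseudogenes called in any comparison, 1 point per library; grey points are WT + vehicle, red Tau + vehicle and blue Tau + UNC0642, with circles for replicate 1, triangles for replicate 2, and values of 0 drawn at the left edge. Rpl3-ps2 separates the Tau + vehicle libraries from all others, while Rps2-ps10, Rps26-ps1 and Rps15a-ps6 each have 1 library apart.

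Each parent and all its named pseudogenes, any count included, were added into 1 row of the table and the whole table was fitted again. In this step, chosen with the data in view, families could be compared without dividing counts among the named copies. Copies under other names were not added, and the sums include Rps7-ps2 and Rpl36a-ps3, which are closer to other genes. Of the 50 families 2 were called between Tau and WT (4%, beside 9.81% of all rows), Rpl15 and Rpl28, both higher. After UNC0642 3 were called (6% beside 7.67%), with Rpl15 and Rps16 lower and Rps7 higher, and against WT 1 was called (2% beside 9.47%), Rps18, which was higher. The Rps18 family was at 28.5 CPM in UNC0642 replicate 1 and 16.5 CPM in replicate 2, against 16.6 and 15.1 CPM in WT libraries. UNC0642 replicate 1 thus stood apart, and the Rps18 call was also lost without WT replicate 2. The Rps7 family, 96.6% of it counts of Rps7, was at 16.9 and 15.3 CPM in UNC0642 against 10.6 and 13.0 CPM in Tau libraries. None passed edgeR's adjusted threshold, where the smallest adjusted p was 0.34. Leaving out each library in turn gave 1 to 4, 1 to 4 and 0 to 4 called families in the 3 comparisons, and without the library labelled WT replicate 1 there were 4 between Tau and WT and 3 between UNC0642 and WT. Of the members called, 1 of 8, 2 of 7 and 0 of 2 belonged to a called family. The highest library exceeded the lowest by more than 1.5 times in 25 of the 59 members with at least 100 counts, in 15 of the 50 parents and in 6 of the 50 families, which hold more counts and so have less counting error. The widest ratio was 38.3 among members (Rpl3-ps2), 10.4 among parents (Rps2) and 1.89 among families (Rps18).

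**Figure D5:**
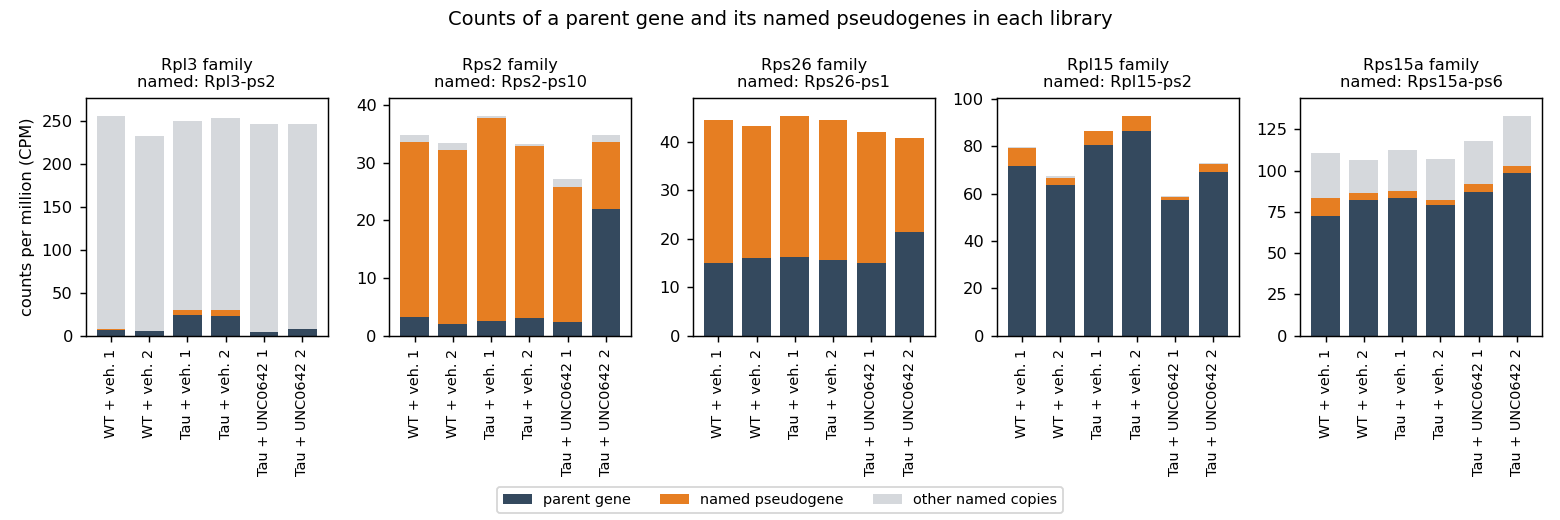
Library-size-scaled counts (CPM) of 5 parent genes, of 1 called copy each and of all their other named copies, stacked for each of the 6 libraries. The stacks of Rpl3 differ little in height while Rpl3 and Rpl3-ps2 are widest in Tau + vehicle, and in UNC0642 replicate 2 the parent Rps2 is the larger part of its stack.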

How the data were processed

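Total PFC RNA of 6 mice was treated with DNase, ribosomal RNA was removed, and stranded libraries were sequenced. By their methods, the authors used Cutadapt for trimming and TopHat2, at default settings and with RefSeq mRNAs, for alignment. The authors deposited raw counts per gene from featureCounts. The submitters' processing notes also list mm10, SAMtools and edgeR. The strand setting, the handling of reads that align to several places and whether reads or fragments were counted are not given in the sources used here. All bear on pseudogenes.

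Date-like entries stood in place of 26 gene names, which were joined by position, and no member was among them. Counts were fitted with edgeR 4.0.16 in R 4.3.3. The filter filterByExpr (minimum count 10, minimum total 15) kept 20409 genes, TMM factors were used, and a quasi-likelihood model of group means over all 6 libraries left 3 residual degrees of freedom (biological coefficient of variation 12.3%). Calls needed p under 0.05 and a 1.2-fold change. Adjusted p-values are Benjamini-Hochberg values over all genes tested. SE is the log2 fold change over the root of F. Replicates are biological duplicates, and same-numbered libraries were not paired: their deviations correlated at -0.05, -0.03 and -0.01. An exact permutation test of 2 against 2 cannot go below p = 0.333 and was not used. Library totals of 17005664 to 28972176 make 3 counts worth 0.104 to 0.176 CPM, and few counts limit the precision of most members.

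Positions, gene types and transcripts came from GENCODE M21 (GRCm38, the build mm10), in which all 114 members matched a single gene. The parent is the gene named before -ps. Transcripts were aligned with blastn 2.17.0+ and Biopython 1.88. Lengths are merged exons, retained introns included. Alternatives were DESeq2 1.42.0 size factors and Wald test, limma 3.58.1 voom, library size alone, other filters and thresholds, only the 2 groups compared, a replicate block, Xist as a covariate and fits without each library. Counts halved and family sums were added after seeing the data.

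Named are the members called in any comparison (at most 12 each by p), the 10 with the highest mean CPM, those of highest and lowest identity to the parent, the rows nearest to 15 counts, their parents and the genes around them, and Xist, Ddx3y, Prnp and Mapt. Other named genes (copies that do not match their names, called families) were chosen after their values were seen. The members, lists and rules were chosen with earlier results of these data known. Some items that these rules name are not reported here.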

Additional observations from a re-analysis of the deposited data

How the results depend on the processing

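The number of members called between Tau and WT was 8 of 75, and 4 of the 57 with at least 10 counts in every library (9.53% of all genes there), 11 with Xist as a covariate (5 shared with the 8, 9.05% of all genes), 1 at an adjusted p under 0.05 and 3 to 9 when each library was left out. Their median log2 fold change was 0.06, -0.0065 with library size alone, and -0.021 to 0.063 without each library. After UNC0642, 7 of 75 members were called, 4 of 57 with at least 10 counts in every library (7.55% of all genes there), 7 with Xist as a covariate (3 shared, 8.02% of all genes), 1 with adjusted p-values and 5 to 7 without each library, and the median of 0.05 became -0.053 with Xist as a covariate and -0.011 to 0.071 without each library. Between UNC0642 and WT 2 of 75 members were called, 4 with library size alone, 8 of all 114 with no filter (7.49% of all 34535 genes then tested), 4 with Xist as a covariate, 0 with adjusted p-values and 2 to 5 without each library. Their median was 0.0042 to 0.142 without each library. In this last comparison, 9.87% of all genes were called with library size alone and 10% with Xist as a covariate. With the replicate block 7, 7 and 1 members were called, beside 8.78%, 6.88% and 8.6% of all genes. The block took the calls of Rpl28-ps1 between Tau and WT and of Rpl15-ps2 between UNC0642 and WT. The same-numbered libraries share only a number. The difference of Rps15a-ps6 between UNC0642 and Tau, 0.39 and not called, turned to -0.97 with Xist as a covariate. The Xist slope comes mainly from the WT libraries, in which Rps15a-ps6 had 289 and 108 counts. The turn therefore does not show a treatment effect freed of sex. Families called between Tau and WT were 2, 0 with library size alone, 1 with the DESeq2 Wald test, 1 with the replicate block, 4 with Xist as a covariate and 1 to 4 without each library. After UNC0642 they were 3, and 1 to 4 without each library. Between UNC0642 and WT they were 1, and 0 with library size alone, limma-voom or Xist as a covariate, and 0 to 4 without each library. For families, the share of all rows called is given above for the main fit only. Apart from the source of the Xist slope, why these values moved was not tested. Asking for 10 counts in every library removes Rpl3-ps2, Rpl31-ps21 and Rps2-ps11 by construction. Both calls of Rpl3-ps2 held in all 15 other fits, from 3.88 to 4.76 without each library between Tau and WT and from -5.16 to -4.43 after UNC0642. Groups of 2 libraries and few counts limit all calls, and 39 members with 42 counts or fewer were removed by the filter and tested only in the fit without it.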

Other observations

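Among the members never called, Rpl14-ps1, which lies in an intron of Trpm4 on the opposite strand, had 2991 and 2874, 3002 and 2031, and 1976 and 2581 counts in WT + vehicle, Tau + vehicle and Tau + UNC0642, or 107 to 118 CPM. Rpl14, its parent, was at 54.0 to 61.5 CPM in the same libraries.

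The 3 tested copies least like their parents held few counts in every library. Rpl7a-ps9, 88.4% identical to Rpl7a, had 3 to 19 counts, Rps27a-ps1 (87.1% to Rps27a) had 17 to 30, and Rpl36a-ps3 (87.5% to Rpl36a, closer to Rpl36al) had 46 to 70 counts. None of them was called in any comparison.

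Of the 9 members on the X chromosome, 4 were tested and 1, Rpl3-ps2, was called. It was called between Tau and WT and after UNC0642, as were 9.82% and 7.69% of all genes. On chromosome 9, 3 of 5 tested members were called in any comparison. These numbers are too small to read as a trait of a chromosome. Mapt, the mouse tau gene, was at 448 CPM in WT replicate 2 and at 575 CPM in the library labelled WT replicate 1. In the transgenic libraries it was at 570 to 613 CPM.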
